A study of Mus musculus with 4 samples.

Results

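The nuclear-encoded subunits of the respiratory chain and ATP synthase were followed at their translation initiation sites in mouse cortical neurons. Members were chosen by gene symbol alone: the structural subunits of complex I (Nduf genes of the a, b, c, s and v series), complex II (Sdha to Sdhd), complex III (Uqcr genes and Cyc1), complex IV (the Cox4 to Cox8 families) and ATP synthase, or complex V (Atp5 genes), with the electron carrier Cycs. This rule found 34 transcripts of 33 genes among 6352 transcripts with 6342 symbols. Complex I had 17 transcripts, complex II 4, complex III 4, complex IV 1 and complex V 8. Of 89 RefSeq protein-coding genes whose symbols match the rule, 33 were analysed, and the others, Cycs and all but 1 of the 18 genes of complex IV among them, were not analysed here.

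Footprints came from primary cultured cortical neurons of wild-type (WT) and Ltn1 knockout (KO) mice, each with a scrambled RNAi or an RNAi against Ttc3, and all cultures were given harringtonine at 5 µg/ml for 3 min, a drug that holds ribosomes at start codons. Ltn1 encodes the ubiquitin ligase that marks nascent chains on stalled large ribosomal subunits, and the comparisons ask how initiation differs without it and with or without the knockdown of Ttc3, another ubiquitin ligase. Each of the 4 conditions had 1 library. By the titles, libraries with the code TTC had the scrambled RNAi and libraries with the code SC the Ttc3 RNAi, whereas the code letters spell the opposite, so genotype and code serve as names here: KO SC, KO TTC, WT SC and WT TTC. Where 2 values are given for a genotype, SC comes before TTC. The deleted part of Ltn1, the days in culture and the number of animals behind a library are not given in the sources used here.

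The respiratory chain sits in the inner mitochondrial membrane. Complexes I and II pass electrons from NADH and succinate to coenzyme Q, complex III passes them to cytochrome c, complex IV passes them to oxygen, and ATP synthase uses the proton gradient that builds up. Most subunits are encoded in the nucleus, made in the cytosol and imported, while a small core is encoded by mitochondrial DNA, so that every complex but complex II draws on separate translation systems. Neurons depend heavily on this machinery for synaptic activity.

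Levels are in RPM, reads at the listed site of a transcript, scaled to the total reads of its library. They are not divided by length, and the window counted around the start codon is not given in the sources used here, so values of different genes are site reads and not amounts of mRNA or protein. The 4 libraries held 1460425 to 3655827 reads, and 1 read was worth 0.274 RPM in KO TTC, the deepest library, and 0.685 RPM in WT TTC, the shallowest. A floor of 3 reads was 0.821 to 2.05 RPM. Ltn1 itself had 10 and 2 reads in WT and 37 and 0 reads in KO, and whether the deletion covers this site is not given, so these reads check no label. Ttc3 had 3 and 0 reads in WT and 2 and 0 reads in KO. Of 15 neuronal markers 14 or 15 had reads in each library, with sums of 1715 to 1950 RPM. Astrocyte markers (7 of 8 listed were in the table) summed to 77.8 and 93.1 RPM in WT and 38.9 and 71.4 RPM in KO. Markers of the oligodendrocyte lineage (7 of 10) summed to 37.7 and 92.4 RPM in WT and 12 and 46.2 RPM in KO, with Mbp at 0 reads in KO SC only, and none of the 8 microglial markers was in the table. In bulk cultures fewer cells of a type and fewer footprints per cell cannot be told apart, and the part of these glial differences in the results below was not tested.

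Respiratory chain subunits were among the well-covered sites of these neurons. Their sum was 1543 and 1812 RPM in WT (2.42% and 2.64% of the reads at all listed sites) and 1493 and 1952 RPM in KO (2.47% and 2.91%). The median member had 26.3 to 28.4 RPM, beside 2.62 to 3.01 RPM over all transcripts, and 18 of the 34 were among the 635 transcripts with the highest mean RPM. Reads were found for 33 of the 34, since the second transcript of Atp5o was at 0 in every library, and 30 had a mean of at least 5 RPM. The highest mean level in each complex belonged to Ndufv2 (199 RPM), Sdhd (45.8), Cyc1 (76.3), Cox4i1 (0.393) and Atp5a1 (255). KO TTC was the highest library for 14 of the 33 members with reads and KO SC the lowest for 13, while WT TTC was the highest for 9 and the lowest for 11.

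**Figure D1:**
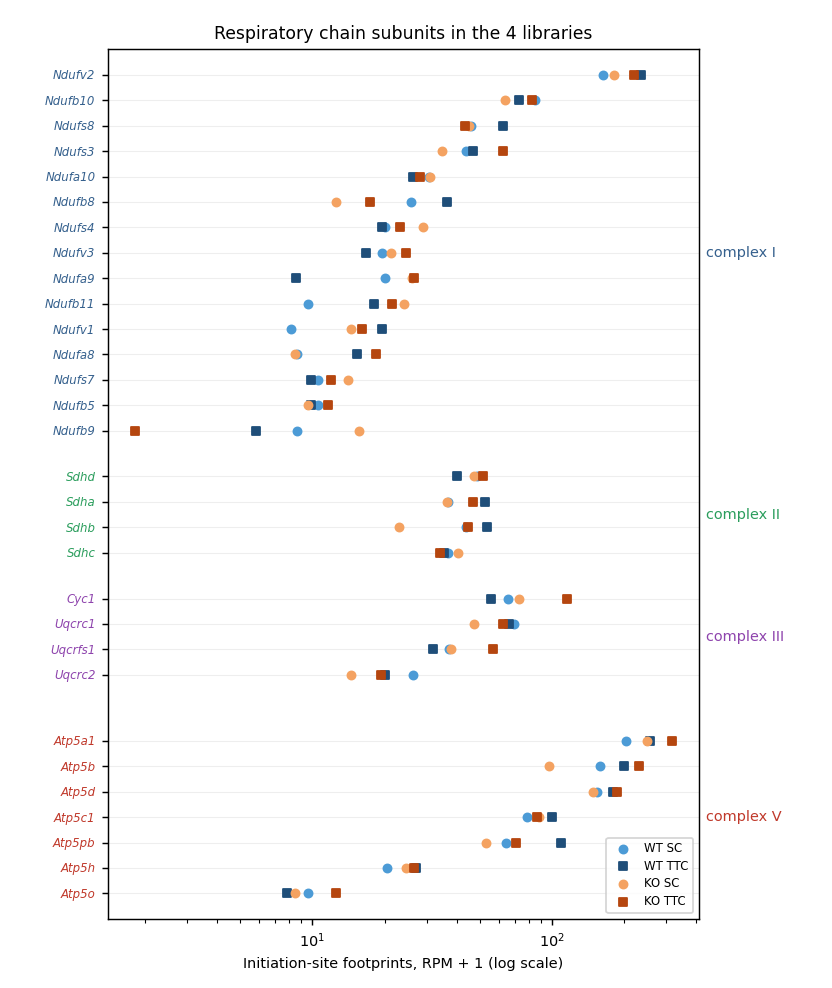
Level of each of the 30 members with a mean of at least 5 RPM (vertical axis, grouped by complex and ordered by mean level) in RPM + 1 on a log scale (horizontal axis). Each point is 1 library, circles for SC and squares for TTC, blue for WT and orange for KO. Atp5a1 and Ndufv2 lie at the right end, and the widest spread is that of Ndufb9, from 0.821 RPM in KO TTC to 14.6 RPM in KO SC.

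Summed over its members, no complex moved the same way with genotype in both codes by more than its counting error. The 17 members of complex I summed to 505 RPM in WT SC beside 521 in KO SC, a ratio of KO to WT of 1.03 (95% interval 0.951 to 1.12, counting error only), and to 594 RPM in WT TTC beside 604 in KO TTC, a ratio of 1.02 (0.940 to 1.10). Complex II gave 162 and 143 RPM in the SC pair, a ratio of 0.883 (0.761 to 1.03), and 177 and 173 RPM in the TTC pair, a ratio of 0.975 (0.842 to 1.13). Complex V gave 681 and 661 RPM, a ratio of 0.971 (0.905 to 1.04), and 872 and 923 RPM, a ratio of 1.06 (0.993 to 1.13). Complex III was the one whose intervals left out 1 in both pairs, in opposite directions. It gave 194 RPM in WT SC beside 168 in KO SC, a ratio of 0.867 (0.757 to 0.994), but 170 RPM in WT TTC beside 250.3 in KO TTC, a ratio of 1.47 (1.28 to 1.70). Without Cyc1 these ratios were 0.747 and 1.18. With median-of-ratios factors, which raise every KO SC level relative to WT SC by 0.14 on the log2 scale, complex I gave 1.14 (1.05 to 1.23) in the SC pair, and when libraries were set to an equal sum over listed sites complex III gave 0.913 there (0.797 to 1.05), no longer apart from 1. Over all 34 members the SC pair gave a ratio of 0.968 (0.924 to 1.01), which crossed 1 under the other scalings, to 1.02 (0.973 to 1.07) with equal sums over listed sites and 1.07 (1.02 to 1.12) with median-of-ratios factors. The TTC pair gave 1.08 (1.03 to 1.13), and 1.10 and 1.12 under them.

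**Figure D2:**
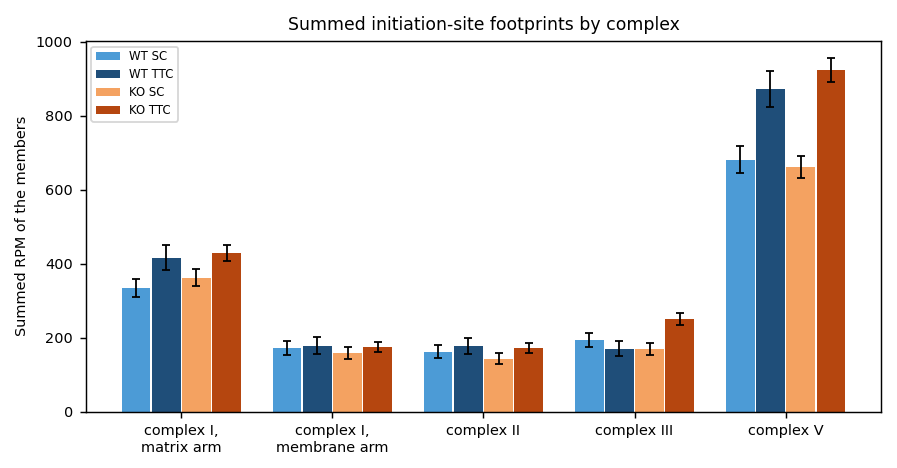
Summed RPM of the members (vertical axis, from 0) for the arms of complex I and for complexes II, III and V (horizontal axis) in the 4 libraries, with exact Poisson 95% intervals of the summed reads as bars. Complex V is higher in both TTC libraries (872 and 923 RPM) than in both SC libraries (681 and 661 RPM), and complex III stands out in KO TTC at 250.3 RPM.

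Within complex I, Ndufb8 was the member that passed as lower in KO in both codes. Reads of a transcript in 2 libraries were set against their totals with an exact binomial test (two-sided), adjusted over all transcripts of the table with reads in that pair, and passed at an adjusted p of 0.05. Such a test compares 2 libraries and not 2 conditions, and reads varied more between libraries than counting allows (the Pearson statistic, 1 under counting error alone, averaged 3.28 for the SC pair and 3.17 for the TTC pair over sites with at least 20 reads). In the SC pair, 2 of the 33 members with reads were higher in KO SC, beside 2.63% of all transcripts tested, and 4 were lower, beside 4.74%. In the TTC pair, 4 were higher in KO TTC, beside 3.14%, and 2 were lower, beside 4.41%. Members have more reads than most transcripts, so those that average at least 5 RPM are the closer background: 6 of 30 members (20%) passed in either direction in the SC pair beside 9.67% of all, and 6 of 30 in the TTC pair beside 9.54%.

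Ndufb8, an accessory subunit of the membrane arm, had 24.8 and 35.6 RPM in WT and 11.6 and 16.4 RPM in KO. Both KO libraries were thus below both WT libraries. The ratio of KO to WT was 0.467 (0.290 to 0.743, adjusted p = 0.0175, exact binomial test) for SC and 0.461 (0.313 to 0.682, adjusted p = 0.00249, same exact test) for TTC. With median-of-ratios scaling, the SC call was lost. Ndufb11, another accessory subunit of that arm, encoded on the X chromosome, had 8.59 and 17.1 RPM in WT and 23.2 and 20.5 RPM in KO. Its ratio of KO to WT in the SC pair was 2.70 (1.58 to 4.85, adjusted p = 0.00361, exact test), while the ratio of 1.20 in the TTC pair did not pass (adjusted p = 0.849, same exact test). WT SC was the lowest library by a wide gap.

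Ndufa9, an accessory subunit near the junction of the arms, had 19.1 and 7.53 RPM in WT and 25.1 and 25.4 RPM in KO. The TTC pair gave a ratio of 3.38 (1.80 to 7.00, adjusted p = 0.000944, exact test) and the SC pair 1.31 (adjusted p = 0.514, same exact test). WT TTC, with 11 reads, was the library that stood apart. Ndufb9, a small accessory subunit of the membrane arm, had 7.63 and 4.79 RPM in WT (16 and 7 reads) and 14.6 and 0.821 RPM in KO (39 and 3 reads). Neither genotype pair passed for it (adjusted p = 0.193 and 0.0815, exact test), although its ratios of 1.91 and 0.171 point in opposite directions.

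The core subunits of the matrix arm carry the path of electrons from NADH to coenzyme Q, and none of them passed in either genotype pair. Ndufv1, which binds NADH and the flavin, had 7.16 and 18.5 RPM in WT and 13.5 and 15.0 RPM in KO. Ndufv2, the neighbouring iron-sulfur subunit, had 162 and 235 RPM in WT and 180 and 219 RPM in KO. Its ratios were close to 1 with narrow intervals, 1.11 (0.968 to 1.28) for SC and 0.931 (0.819 to 1.06) for TTC. Ndufs8, an iron-sulfur subunit on the way to coenzyme Q, had 44.8 and 61.6 RPM in WT and 44.1 and 42.4 RPM in KO, with both KO libraries below both WT libraries. Ndufs1, the largest core subunit, was near the lower end of what can be compared, with 4 to 19 reads. It had 9.06 and 2.74 RPM in WT and 2.62 and 4.65 RPM in KO. Its SC ratio of 0.289 (0.103 to 0.718) just missed the threshold (adjusted p = 0.0597, exact test), and its TTC ratio was 1.70 (0.554 to 6.94).

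Ndufa9, Ndufs4 and Ndufs7, which all belong to the matrix arm, share a start element. Ndufa9, Ndufs4 (an accessory subunit needed for a stable matrix arm) and Ndufs7 (the core subunit with the last iron-sulfur cluster before coenzyme Q) each hold the letters AANATGGCG on the transcribed strand within 50 bases after the RefSeq start. Background to this element is that a short sequence around the start codon of mRNAs with very short leaders is known as a translation initiator, and that it overlaps the motif of the transcription factor YY1. The windows are shown because the 3 genes carry nearly the same letters, with the element in capitals, 5′ to 3′, from RefSeq on GRCm38.p6: Ndufa9 from chr6:126849098-126849127 (minus strand), Ndufs4 from chr13:114388045-114388071 (minus strand) and Ndufs7 from chr10:80249461-80249490 (plus strand).
Ndufa9: gcattgtgggagAAGATGGCGgccgccgtc
Ndufs4: tttgcctacaggAAGATGGCGgcggtc
Ndufs7: aaggccgaggccAAGATGGCGgcgctggcg
The ATG of the element begins 33, 39 and 28 bases after the RefSeq start. Whether it is the annotated start codon was not checked. The element was searched after values had been seen, and it was found in 3 of the 25 member genes with a promoter entry (12%), beside 149 of 4912 genes of the table (3.03%) and 293 of 27025 genes in all (1.08%).

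The 3 genes with the element had higher levels in KO than in WT in both pairs. Ndufs4 had 19.1 and 18.5 RPM in WT and 28.1 and 22.2 RPM in KO, with ratios of 1.47 (0.989 to 2.22) and 1.20 (0.767 to 1.93). Ndufs7 had 9.54 and 8.90 RPM in WT and 13.1 and 10.9 RPM in KO, with ratios of 1.37 (0.771 to 2.51) and 1.23 (0.644 to 2.50). Only Ndufa9 passed, and only in the TTC pair. Among the 54 genes of the table with the element at a mean of at least 5 RPM, the members included, 24 were higher in KO SC and 25 in KO TTC than in the WT library of their code (44.4% and 46.3%), beside 41.4% and 45.9% of all 1808 transcripts of that level with a promoter entry, so the direction of these 3 genes was not that of genes with the element at large.

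**Figure D3:**
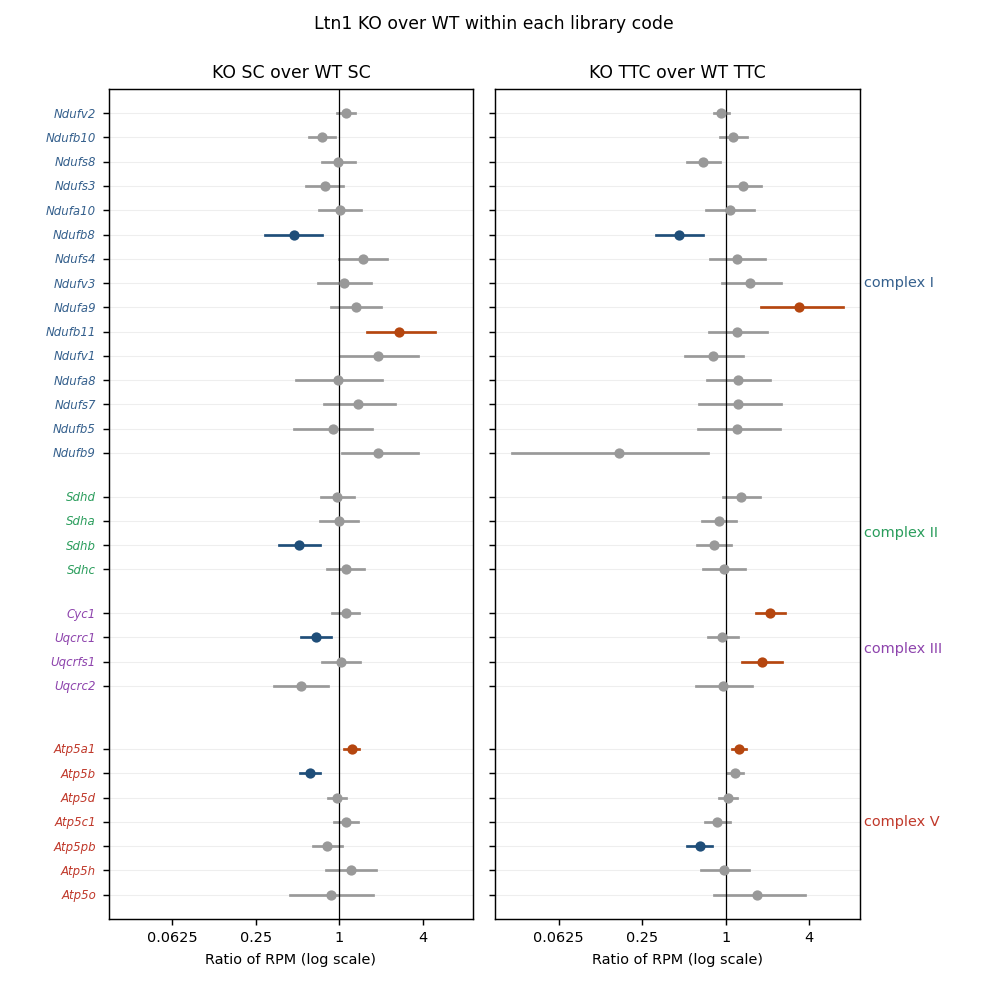
Ratio of RPM, KO over WT, on a log scale (horizontal axes) for the same 30 members (vertical axis) for the libraries coded SC (left) and TTC (right), with 95% intervals for counting error. Orange and blue points passed the exact test as higher or lower in KO, and grey points did not. Atp5a1 is to the right of 1 and Ndufb8 to the left in both panels.

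Complex II, succinate dehydrogenase, which also serves the citric acid cycle, differed by 1 subunit. Sdhb, the iron-sulfur subunit, had 42.9 and 52.7 RPM in WT and 22.1 and 43.5 RPM in KO. KO SC was the low library, at a ratio of 0.514 to WT SC (0.364 to 0.722, adjusted p = 0.00250, exact test), and the TTC pair did not pass at 0.825 (adjusted p = 0.517, same exact test). Sdha, the flavin subunit that oxidises succinate, had 35.8 and 51.4 RPM in WT and 35.5 and 45.7 RPM in KO, with ratios of 0.993 (0.726 to 1.36) and 0.890 (0.673 to 1.18). Of the membrane anchors, Sdhc stayed between 33.1 and 39.7 RPM, and Sdhd had 47.7 and 39.0 RPM in WT and 46.0 and 50.6 RPM in KO. Neither passed in any of the 4 pairs tested.

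By genotype, complex III showed 2 patterns, although its 4 members shared a shift between the codes. In KO the TTC library exceeded the SC library for all 4, at ratios of 1.60 (Cyc1), 1.51 (Uqcrfs1), 1.33 (Uqcrc1) and 1.36 (Uqcrc2). Of these, Cyc1 and Uqcrfs1 passed. In WT the TTC library was the lower one for all 4, at ratios of 0.758 to 0.954, and none passed. Cyc1, the cytochrome that hands electrons on to cytochrome c, had 64.4 and 54.8 RPM in WT and 71.5 and 115 RPM in KO. Uqcrfs1, the Rieske iron-sulfur protein that feeds Cyc1, had 36.3 and 30.8 RPM in WT and 37.0 and 55.8 RPM in KO. Both were highest in KO TTC. In the TTC pair the ratio was 2.09 for Cyc1 (1.64 to 2.69, adjusted p = 4.12e-08, exact test) and 1.81 for Uqcrfs1 (1.31 to 2.56, adjusted p = 0.00581, same exact test). The SC pair gave 1.11 (0.885 to 1.39) and 1.02 (0.750 to 1.40). The core proteins Uqcrc1 and Uqcrc2, which do not carry electrons, were lowest in KO SC instead. Uqcrc1 had 68.2 and 65.0 RPM in WT and 46.4 and 61.5 RPM in KO, with a ratio of 0.680 in the SC pair (0.530 to 0.871, adjusted p = 0.0289, exact test), a call lost when the libraries were rescaled by their listed sites. Uqcrc2 had 25.3 and 19.2 RPM in WT and 13.5 and 18.3 RPM in KO, with a ratio of 0.533 in the SC pair (0.339 to 0.829) that just missed the threshold (adjusted p = 0.0503, exact test).

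Complex IV was represented by Cox4i1, a regulatory subunit found in most tissues, and could not be compared. Its listed site had 1 and 0 reads in WT and 0 and 4 reads in KO. These counts are at or near the floor of 3 reads and say nothing of its level.

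Complex V held the most reads of the members, 44.1% to 48.1% of their sum. Atp5a1, the alpha subunit of the catalytic head, had 202 and 255 RPM in WT and 248 and 315 RPM in KO. Its ratio of KO to WT was 1.23 for SC (1.09 to 1.39, adjusted p = 0.0193, exact binomial test) and 1.24 for TTC (1.10 to 1.40, adjusted p = 0.00815, same exact test). With Ndufb8 it was 1 of the 2 members that passed in both pairs, each in the same direction. These were 2 of the 30 members that average at least 5 RPM, beside 48 of all 2314 transcripts at that level. The differences of Atp5a1 are small. Atp5b, the beta subunit that holds the catalytic sites, had 157 and 199 RPM in WT and 95.8 and 230.0 RPM in KO. KO SC was the low library, at a ratio to WT SC of 0.610 (0.516 to 0.721, adjusted p = 7.91e-07, exact test), and the TTC pair gave 1.16 (1.01 to 1.33, adjusted p = 0.200, same exact test). Atp5pb, the b subunit of the peripheral stalk, had 63.4 and 108 RPM in WT and 52.0 and 70.0 RPM in KO, with a TTC ratio of 0.647 (0.529 to 0.794, adjusted p = 0.00140, exact test) and an SC ratio of 0.820 (adjusted p = 0.404, same exact test). WT TTC was the high library here. Atp5c1 and Atp5d, the gamma and delta subunits of the central stalk, did not pass in either genotype pair, with ratios of 1.12 and 0.868 for Atp5c1 and 0.966 and 1.04 for Atp5d. Atp5h and Atp5o, further proteins of the peripheral stalk, had 19.6 to 26.0 RPM and 6.85 to 11.5 RPM and did not pass in any pair.

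The members did not move together with genotype. Of the 33 with reads, 9 were higher in KO in both pairs, 7 lower in both and 17 opposite, so that 48.5% had the same direction, beside 55.2% of all transcripts with a difference in both pairs. These pairs share no library. The median log2 difference of RPM + 1, KO minus WT, was -0.0142 for SC and 0.195 for TTC, beside 0 over all transcripts in both. For the 30 members that average at least 5 RPM the medians were 0.00347 and 0.136, beside -0.105 and -0.0472 over all transcripts at that level. Both KO libraries were above both WT libraries for 7 of 30 members (23.3%), beside 13.1% of all transcripts at that level: Ndufa9, Ndufs4, Ndufs7, Ndufv3, Ndufb11, Cyc1 and Uqcrfs1. Both KO libraries were below both WT libraries for 4 (13.3%), beside 20.4%: Ndufs8, Ndufb8, Uqcrc1 and Uqcrc2.

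An additive fit over the 4 libraries, genotype plus code, starts from how far the genotype difference departs between the codes. That departure is then drawn toward a trend over transcripts of similar level, so an SE or p below is not a member's own departure. For Ndufb8 the log2 differences were -1.03 for SC and -1.07 for TTC, while its SE below is 0.25. With 1 library per condition, the fit cannot measure a spread between repeat libraries. With limma on log2(RPM + 1) it called none of the 32 members with a mean of at least 2 RPM for genotype, beside 0% of 3674 transcripts, and edgeR on the recovered reads also called none. At an unadjusted p of 0.05, limma had 124 transcripts higher and 185 lower in KO, and 2 members each way: Ndufa9 and Cyc1 higher, Ndufb8 and Sdhb lower. Among those that average at least 5 RPM, the largest coefficients belonged to Ndufa9 (1.00 ± 0.36 SE, log2), Ndufb11 (0.79 ± 0.34), Cyc1 (0.60 ± 0.25), Uqcrfs1 (0.43 ± 0.26) and Ndufs4 (0.39 ± 0.25), and the smallest to Ndufb8 (-1.05 ± 0.25), Sdhb (-0.60 ± 0.24), Uqcrc2 (-0.46 ± 0.30), Atp5pb (-0.45 ± 0.19) and Ndufb9 (-0.41 ± 0.64). Before the error is shared over transcripts, the fit has 1 residual degree of freedom. The smallest adjusted p of a member was 0.522 (limma).

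Between the codes, complex V was higher in TTC than in SC in both genotypes, in its sum and in 6 of its 7 members with reads in each. Under the titles this sets scrambled RNAi over Ttc3 RNAi, and under the code letters the reverse. The summed ratio for complex V was 1.40 (1.32 to 1.48) in KO and 1.28 (1.19 to 1.38) in WT, and without Atp5a1, its most abundant member, 1.47 (1.37 to 1.58) and 1.29 (1.18 to 1.41). For the matrix arm of complex I it was 1.18 (1.09 to 1.28) and 1.24 (1.12 to 1.39), with 7 of 10 members higher in KO and 4 of 10 in WT. Ndufv2 held 48.4% to 56.5% of the reads of that arm, and without it the ratios were 1.16 (1.03 to 1.30) and 1.05 (0.892 to 1.23), the second no longer apart from 1. Leaving out these members was chosen after seeing the data. The membrane arm gave 1.10 (0.974 to 1.25) and 1.04 (0.883 to 1.22). Complex II gave 1.21 (1.06 to 1.37) in KO and 1.09 (0.927 to 1.29) in WT. Complex III gave 1.49 (1.33 to 1.67) in KO but 0.875 (0.744 to 1.03) in WT. These ratios depend on the scaling. Over all transcripts the listed sites also took a larger share of the TTC libraries (6.85% and 6.70%) than of the SC libraries (6.38% and 6.06%), and rescaling to the same sum over them lowers every ratio by 0.14 on the log2 scale in KO and by 0.10 in WT. Complex V then stood at 1.26 (1.19 to 1.34) and 1.19 (1.10 to 1.29), the matrix arm at 1.07 (0.988 to 1.16) and 1.16 (1.04 to 1.29), and the membrane arm turned to 0.997 and 0.967. Complex II stood at 1.09 (0.960 to 1.24) and 1.02 (0.862 to 1.20), no longer apart from 1 in KO, and complex III at 1.34 (1.20 to 1.51) in KO and 0.814 (0.692 to 0.956) in WT, the latter now below 1.

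In KO, 11 members passed as higher in TTC than in SC, beside 10.9% of all transcripts tested, and 1 was lower, beside 5.71%. At a mean of at least 5 RPM, 12 of 30 members (40%) passed, beside 22.7% of all. The 11 came from each complex but IV: Ndufs3, Ndufv2, Ndufa8, Ndufb10, Sdhb, Cyc1, Uqcrfs1, Atp5a1, Atp5b, Atp5d and Atp5pb. When the libraries were rescaled to the same sum over listed sites, 7 of the 12 calls were left, and with median-of-ratios scaling 6. Ndufb10, Ndufv2, Uqcrfs1, Atp5d and Atp5pb were lost under both, and Atp5a1 also with median-of-ratios scaling. Reads varied even more between the codes than between the genotypes. Over sites with at least 20 reads, the Pearson statistic averaged 5.12 between the KO libraries and 4.15 between the WT libraries. The intervals and adjusted p-values for these pairs cover counting error only and leave this spread out. Atp5b had the largest ratio of the 11, 2.40 (2.09 to 2.77, adjusted p = 8.90e-36, exact test). Ndufa8, an accessory subunit of the membrane arm, had 7.63 and 14.4 RPM in WT and 7.48 and 17.5 RPM in KO, a ratio of 2.34 in KO (1.40 to 4.08, adjusted p = 0.00634, exact test). Sdhb was at 1.97 (1.45 to 2.70), and Ndufs3, a core subunit of the matrix arm at 42.9 and 45.9 RPM in WT and 33.7 and 61.5 RPM in KO, was at 1.83 (1.43 to 2.36, adjusted p = 2.31e-05, exact test). Atp5d had 153 and 179 RPM in WT and 147 and 185 RPM in KO, a ratio of 1.26 in KO (1.11 to 1.43, adjusted p = 0.00354, exact test). Ndufb10, an accessory subunit of the membrane arm and its most abundant member, had 83.5 and 71.9 RPM in WT and 62.8 and 81.5 RPM in KO, a ratio of 1.30 in KO (1.07 to 1.58, adjusted p = 0.0458, exact test). WT SC was its highest library and KO SC its lowest. Ndufb9 was the member that was lower, at a ratio of 0.0562 (0.0111 to 0.177, adjusted p = 1.14e-09, exact test), from 39 reads to 3.

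**Figure D4:**
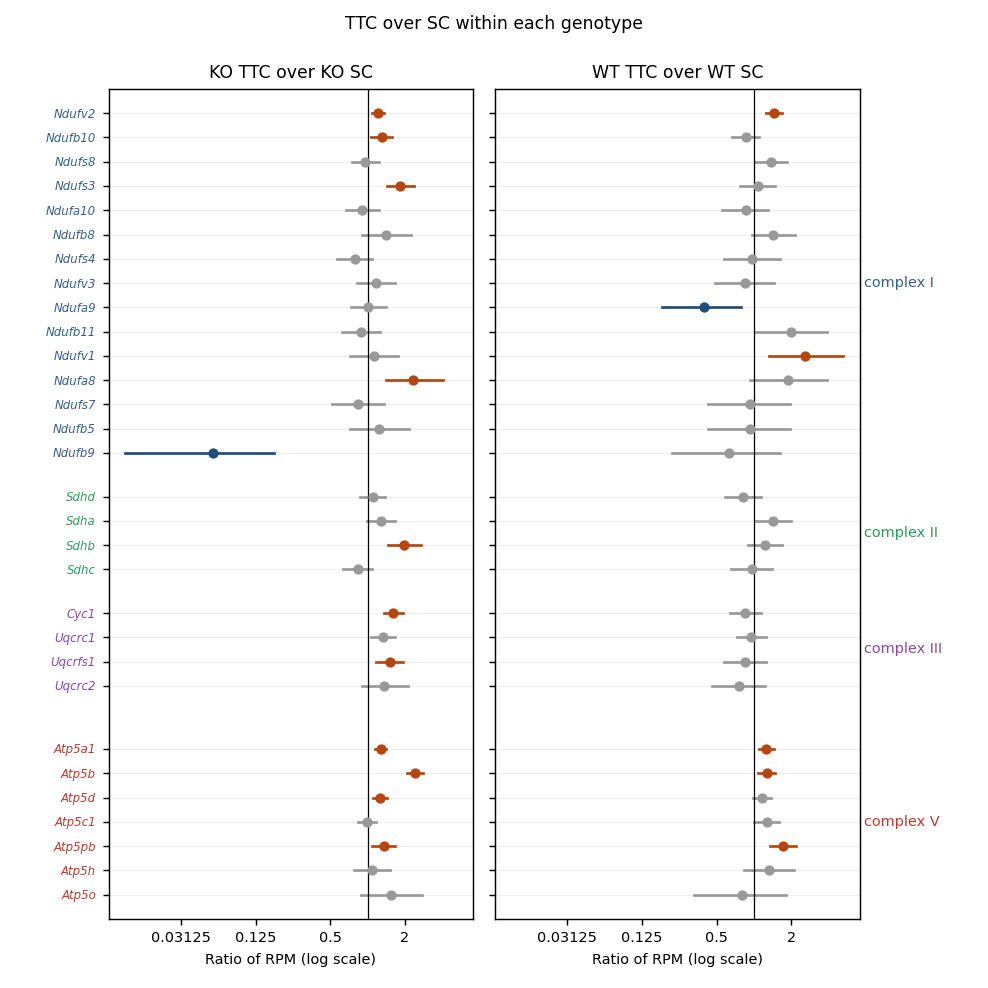
Ratio of RPM, TTC over SC, on a log scale (horizontal axes) for the same 30 members (vertical axis) in KO (left) and in WT (right), with 95% intervals for counting error. Orange and blue points passed the exact test as higher or lower in TTC. Atp5a1, Atp5b, Atp5pb and Ndufv2 are to the right of 1 in both panels, and Ndufb9 in KO lies far to the left at 0.0562.

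In WT, 5 members passed as higher in TTC than in SC, beside 7.02% of all transcripts tested, and 1 was lower, beside 3.82%. At a mean of at least 5 RPM, 6 of 30 members (20%) passed, beside 14.7% of all. The 5 were Ndufv1 at a ratio of 2.58 (1.33 to 5.22), Atp5pb at 1.71 (1.35 to 2.16), Ndufv2 at 1.45 (1.25 to 1.69), Atp5b at 1.27 (1.08 to 1.49) and Atp5a1 at 1.26 (1.10 to 1.45). The member that was lower was Ndufa9, at 0.395 (0.183 to 0.784, adjusted p = 0.0432, exact test). Either other scaling left 3 of these 6 calls: Atp5pb, Ndufv2 and Ndufa9. Both TTC libraries were above both SC libraries for 11 of 30 members (36.7%), beside 29.3% of all transcripts at that level, and below for 3 (10%), beside 15.9%. All but Atp5c1 and Atp5o of the 7 complex V members with reads were among the 11. The limma fit called no member for code, beside 0% of 3674 transcripts, with 399 transcripts higher and 194 lower in TTC at an unadjusted p of 0.05, 6 members higher and 1 lower among them, and a smallest adjusted p of 0.199 for a member (limma, Atp5b). edgeR called none either.

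For 3 members the ratio of KO to WT differed between the codes. The ratio in the SC pair was divided by that in the TTC pair and tested with an exact test on the reads of all 4 libraries, adjusted over 4642 transcripts, of which 3.96% passed. Atp5b (0.610 in SC, 1.16 in TTC), Cyc1 (1.11 and 2.09) and Ndufb9 (1.91 and 0.171) passed. No other member did. Members have more reads than most transcripts, and the share passing at a mean of at least 5 RPM was not taken for this test. Ndufb8 and Atp5a1, the members called in both pairs, had ratios of ratios of 1.01 and 0.993 (adjusted p = 1, exact test, for both).

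Atp5b in KO SC also stood apart from its partners in the same enzyme. The catalytic head of ATP synthase is built from alternating alpha and beta subunits around a single gamma. The ratio of Atp5b to Atp5a1 reads was 0.778 (0.671 to 0.900) and 0.780 (0.666 to 0.911) in WT and 0.729 (0.667 to 0.798) in KO TTC, but in KO SC it was 0.386 (0.333 to 0.447). Set against Atp5c1, the gamma subunit, Atp5b was at 2.02, 2.01 and 2.69 in those 3 libraries and at 1.10 (0.920 to 1.32) in KO SC, while Atp5a1 was at 2.60, 2.58, 3.68 and, in KO SC, 2.86. These ratios are free of library scaling. Their levels depend on the window at each site, so the change across libraries is what can be read, not the stoichiometry. Sdha over Sdhb was 0.833 and 0.974 in WT, 1.05 in KO TTC and 1.61 (1.15 to 2.27) in KO SC, and Cyc1 over Uqcrfs1, whose levels differ between libraries, stayed within 1.78 to 2.05.

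**Figure D5:**
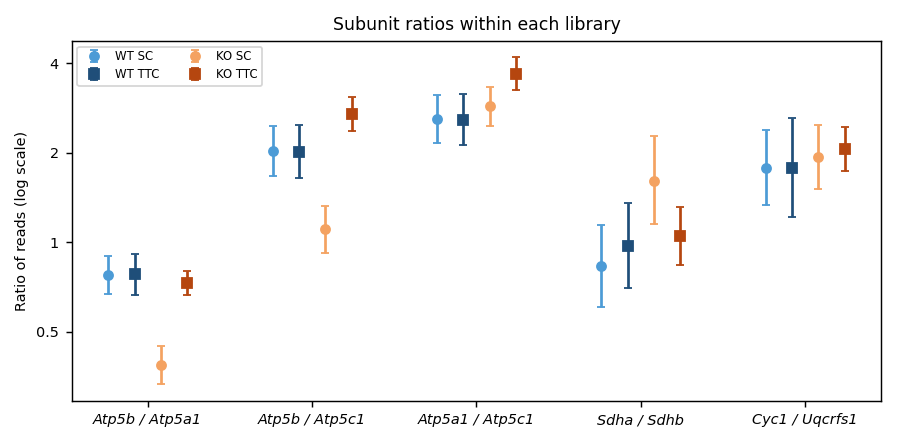
Ratio of reads between subunits of the same complex (vertical axis, log scale) for 5 gene pairs (horizontal axis) in each library, with 95% intervals for counting error. The circle of KO SC is the low point for Atp5b over Atp5a1 (0.386) and Atp5b over Atp5c1 (1.10) and the high point for Sdha over Sdhb (1.61), while Cyc1 over Uqcrfs1 overlaps in all libraries.

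Genes that build and serve the complexes were taken from fixed lists. Ndufab1, a complex I subunit that the symbol rule leaves out and that is also the mitochondrial acyl carrier protein, had 70.1 and 77.4 RPM in WT and 74.4 and 85.3 RPM in KO and passed in no pair. Of 11 assembly factors of complex I in the table, 1 passed in the SC pair as lower in KO SC (4.74% of all transcripts), none in the TTC pair, 4 between the KO libraries and none between the WT libraries. Of those 4, 3 were lower in KO TTC (5.71% of all) and 1 was higher (10.9% of all). Ndufaf1 had 9.54 and 6.16 RPM in WT and 11.2 and 4.10 RPM in KO (adjusted p = 0.0121, exact test). The others had no reads in WT and rest on few reads in KO: Ndufaf5 had 8 reads in KO SC, Timmdc1 9 in KO SC and Tmem126a 13 in KO TTC, each with 0 in the other KO library. Ndufaf7, a methyltransferase that acts during assembly, had 24.8 and 12.3 RPM in WT and 9.35 and 12.9 RPM in KO and was below WT SC in KO SC (adjusted p = 0.00192, exact test). Of 7 assembly factors of complex IV, 1 passed in the TTC pair, as lower in KO TTC (4.41% of all transcripts). Another passed between the KO libraries, as higher in KO TTC (10.9% of all). The first was Lrpprc, which stabilises mitochondrial mRNAs, with 11.0 and 21.9 RPM in WT and 8.98 and 10.7 RPM in KO. WT TTC was its high library. The other, Sco2, a copper chaperone, had 10 reads in KO TTC and none in the other libraries. None of the 5 assembly factors of complexes II, III and V passed in any pair.

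Carriers that exchange ATP, ADP and phosphate across the inner membrane are the outlet of ATP synthase. Slc25a4, an ADP/ATP carrier of excitable tissues, had 99.7 and 132 RPM in WT and 85.3 and 126 RPM in KO and was higher in TTC than in SC in KO and in WT. Slc25a5, the other ADP/ATP carrier, had 30.5 and 58.2 RPM in WT and 46.8 and 70.8 RPM in KO, also higher in TTC in both genotypes. Slc25a3, the phosphate carrier, had 121 and 114 RPM in WT and 143 and 113 RPM in KO and was below KO SC in KO TTC. None of these 3 passed in a genotype pair, and of the 7 genes of this list only Vdac1, the outer membrane channel, did, from 62.5 RPM in WT SC to 38.9 in KO SC. Among 17 genes of protein import, 2 passed in the SC pair, both lower in KO SC (4.74% of all transcripts). In the TTC pair 1 was lower in KO TTC (4.41% of all) and 1 higher (3.14% of all). Hspa9, the chaperone that pulls precursors into the matrix, was lower in both KO libraries (13.5 RPM against 39.1 for SC, 30.1 against 59.6 for TTC). Dnajc19 was lower in KO SC, with 9 and 0 reads in WT and 0 in both KO libraries. Mipep was higher in KO TTC, with 7 and 0 reads in WT and 14 and 18 in KO. Of 13 genes of coenzyme Q synthesis and electron entry, Coq4 had 0 and 13 reads in WT and 13 and 8 in KO and passed in both genotype pairs in opposite directions, and Etfb, a subunit of the electron transfer flavoprotein, was higher in KO TTC with 31 reads. Only 3 of 16 regulators of mitochondrial biogenesis were in the table, and none of them passed.

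Subunits encoded by mitochondrial DNA gave almost no footprints at their sites. Of 10 such transcripts, 7 were at 0 in every library, and mt-Nd4 had 3 to 6 reads, mt-Atp6 1 to 7 and mt-Co3 0 to 2. Harringtonine acts on cytosolic ribosomes, and why these sites had so few reads was not tested.

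The members' promoters were searched for motifs of factors known to drive respiratory genes, on both strands, in the 300 bases around each RefSeq start that are given for 25 member genes. The core of NRF1, GCGCATGC, was found in 3 (12%): Ndufa8, Sdhb and Uqcrc1. It was found in 6.41% of the genes of the table and 3.05% of all genes. The ETS core of GABPA, CCGGAAG, was found in 5 (20%), Atp5h, Ndufs3, Ndufs8, Sdhb and Sdhd, beside 20.8% and 9.93%. The YY1 core AAGATGGCG was found in 3 (12%), beside 4.15% and 1.64%, and these are Ndufa9, Ndufs4 and Ndufs7, where it is the start element shown above. Such matches are letters and not sites of binding.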

How the data were processed

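Initiation-site footprints of cultured mouse cortical neurons came as 1 library per condition. The authors deposited RPM per transcript, scaled to the reads of a library. Bowtie, SAMtools, bedtools and the build GRCm38/mm10 are named in the submitters' processing notes, without versions. The window counted, the annotation and the handling of reads shared by near-identical copies are not given in the sources used here. All 6352 values of each of the 4 columns were multiples of 1 read within a tolerance of 1e-06, so whole reads were recovered from the deposited RPM. Symbols came from a list of the study by transcript identifier (6313 directly, 38 after an extra digit had been removed, 1 without symbol). Gene positions and promoters are from RefSeq, GRCm38.p6.

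Pairs of libraries were tested on reads with the exact binomial test conditional on both totals (two-sided), with Benjamini-Hochberg adjustment over all transcripts with reads in the pair, at 0.05. Levels have exact Poisson 95% intervals and ratios exact 95% intervals, for counting error only; footprints without molecular identifiers are not independent molecules. An additive model of genotype and code was fitted with limma 3.58.1 (log2(RPM + 1), mean of at least 2 RPM, trended variance), with edgeR 4.0.16 (quasi-likelihood test on the recovered reads) as an alternative, in R 4.3.3. The rest was done in Python 3.11.15 with scipy 1.17.1, numpy 2.4.6, pandas 2.3.3 and matplotlib 3.10.9. Alternatives were a pseudocount of 0.1 RPM, a minimum mean of 5 RPM or none, median-of-ratios factors, libraries rescaled to an equal sum over listed sites, 1 transcript per gene, and the exchange of the RNAi labels. The fits and the pair test were tried on simulated reads with counting error alone and added changes by genotype. The simulation lacked the wider spread between these libraries, so it does not check error rates at that spread.

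The members, the lists and the tests were chosen with earlier results of these data known. Values in all libraries are given for members past an adjusted p of 0.05 in any pair, for the member with the highest mean in each complex and for the 5 largest and 5 smallest genotype coefficients. Other genes are named from the lists where they pass. The test of the difference between genotype ratios and the start element were added after seeing the data. Values of some single genes are not reported here.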

Additional observations from a re-analysis of the deposited data

Results flagged for a closer look

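3 members had a ratio of KO to WT in the SC pair that differed from that in the TTC pair, by an exact test on reads adjusted over all transcripts. The test was added after seeing the data and covers counting error of 4 single libraries. For Atp5b the ratio of ratios, SC over TTC, was 0.527 (adjusted p = 1.04e-06, exact test), with 329 and 256 reads in WT SC and KO SC and 290 and 841 in WT TTC and KO TTC. For Cyc1 it was 0.530 (adjusted p = 0.00720, exact test), with 135 and 191 reads against 80 and 419. For Ndufb9 it was 11.2 (adjusted p = 0.0343, exact test), with 16 and 39 reads against 7 and 3. Mbp was at 0 reads in KO SC, and the part of glial cells in these values was not tested.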

How the results depend on the processing

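Of 71 alternative values, 59 stayed within the spread used or, for counts of calls, within 1.5 times the main count. The other values were 4 counts of calls that fell by more than 1.5 times and 8 values that moved. Among the 59 is a fall from 6 to 4 calls in the SC pair with median-of-ratios factors. The exchange of the RNAi labels is also among them, and it leaves a count as it was whatever the data. No member that passed a test turned its direction, but values with no test did: complex I without Ndufv2 (0.991) and complex V with equal sums (1.02) in the SC pair, complex II with median-of-ratios factors (1.02) in the TTC pair, those given below, and the median log2 difference of members in the SC pair (0.0457 with equal sums, 0.106 with median-of-ratios factors, 0.00347 at 5 RPM or more) and between the WT libraries (0.0251 at 5 RPM or more). Between KO TTC and KO SC, 12 members passed with whole-library totals, 7 after rescaling to the same sum and 6 with median-of-ratios factors. Between WT TTC and WT SC the count went from 6 to 3 under either. The median log2 difference of members, KO TTC minus KO SC, went from 0.337 to 0.193 and 0.164, beside 0.0417, 0 and 0 over all transcripts. At a mean of at least 5 RPM it was 0.305, beside 0.170 over all transcripts at that level. With median-of-ratios factors the summed ratio in the SC pair went from 1.03 to 1.14 for complex I and from 0.971 to 1.07 for complex V. With the most abundant member left out it went from 0.867 to 0.747 for complex III (without Cyc1) and from 0.971 to 0.862 for complex V (without Atp5a1) in the SC pair, and from 1.47 to 1.18 and from 1.06 to 0.986 in the TTC pair. By construction, a scaling by listed sites takes out their larger share in the TTC libraries. Both scalings lost Uqcrc1 in the SC pair, median-of-ratios factors also Ndufb8, and Uqcrc2 passed there when sites averaging under 5 RPM were left out. Exchanging the RNAi labels turns the sign of every difference between the codes when it is read as an effect of Ttc3 RNAi. No paired analysis was possible because the labels carry no replicate numbers, though the additive fit sets the genotypes against each other within each code. Without replicates, leaving out a library leaves no test, and depth limits members such as Cox4i1, Ndufs1 and Ndufb9, with under 20 reads in at least 1 library.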

Other observations

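Differences past 1.5-fold were counted in each of the 4 pairs. Among transcripts with at least 20 reads in a pair, 8 of 31 members (25.8%) differed by more than 1.5-fold in the SC pair, beside 35.5% of all transcripts, and 8 of 31 (25.8%) in the TTC pair, beside 37.1%. Between the KO libraries it was 10 of 32 (31.3%) beside 43.0%, and between the WT libraries 7 of 31 (22.6%) beside 40.8%. No test was made of these shares, the members have more reads than most transcripts, and the pairs share libraries.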
